A study of Mus musculus with 18 samples.

Results

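Hif1a and 3 genes that respond to low oxygen in many cell types, Vegfa, Adm and Mxi1, were followed in RAW264.7, a macrophage-like line of mouse origin. Members were taken by name from the authors' deposited table of significant pairwise comparisons. The 4 genes are 4 of the 5455 named genes that have at least 1 row between the groups used here, and they account for 7 of 7315 entries, most of which carry a transcript identifier. The samples are 18 poly(A)-selected RNA libraries in 6 groups of 3. Parental cells were left untreated or received the inducer doxycycline at 100 ng/mL. Cells that carry a lentiviral construct (pINDUCER20-mCITED1), from which doxycycline switches on mouse CITED1, were left untreated, received doxycycline at 100 ng/mL, received interferon-gamma at 200 U/mL, or received both agents. The labels name no low-oxygen treatment, and they do not say whether the construct line is 1 clone or how long the cells were treated. Interferon-gamma was given to construct cells in the groups used here and to no parental group, so its effect and any dependence on the construct cannot be told apart.

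HIF-1α, the product of Hif1a, is the oxygen-regulated subunit of the HIF-1 transcription factor. Prolyl hydroxylases mark it for VHL-dependent degradation when oxygen is present, so the transcript level and the protein level can move apart, and in macrophages the transcript is also raised by inflammatory signals. HIF-1α recruits the co-activators CBP and p300, to which proteins of the CITED family also bind. Vegfa encodes the main angiogenic growth factor, Adm the vasodilator peptide adrenomedullin, and Mxi1 a MAX-binding repressor that opposes MYC.

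Both Hif1a entries start from different first exons, as do both Mxi1 entries. The sequences below are printed because these ends are among the parts that set the entries apart. All 7 entries are annotated as protein-coding transcripts in GENCODE M21. The 2 Hif1a entries are Hif1a-202 (ENSMUST00000110461) and Hif1a-201 (ENSMUST00000021530). Hif1a-202 starts 6529 bases upstream of Hif1a-201. The coding sequence of Hif1a-201 has 836 codons and begins in its first exon, whereas that of Hif1a-202 has 810 codons and begins in the shared second exon. The start of each coding sequence is given 5′ to 3′, with the part from the shared second exon in capitals.
Hif1a-201: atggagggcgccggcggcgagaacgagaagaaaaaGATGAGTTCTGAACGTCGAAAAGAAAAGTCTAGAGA
Hif1a-202: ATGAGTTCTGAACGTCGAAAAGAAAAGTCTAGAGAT
Hif1a-201 further holds 42 coding bases that Hif1a-202 lacks, given in capitals between the flanking bases that both entries share.
Hif1a-201 internal stretch: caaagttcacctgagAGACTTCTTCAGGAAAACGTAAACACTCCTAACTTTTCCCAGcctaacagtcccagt

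The 2 Mxi1 entries are Mxi1-201 (ENSMUST00000003870), with 295 codons, and Mxi1-203 (ENSMUST00000111737), with 228 codons. Mxi1-203 starts 18895 bases downstream of Mxi1-201, and both join the same second exon. The last exon of Mxi1-201 also ends further downstream than that of Mxi1-203. The last coding bases of each first exon are in lower case and the shared second exon in capitals.
Mxi1-201: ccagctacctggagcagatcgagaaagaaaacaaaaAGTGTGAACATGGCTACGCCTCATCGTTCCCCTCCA
Mxi1-203: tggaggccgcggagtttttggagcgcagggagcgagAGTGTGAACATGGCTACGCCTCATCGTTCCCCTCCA
For Vegfa the entries are Vegfa-202 (ENSMUST00000071648) and Vegfa-201 (ENSMUST00000024747), whose annotated starts lie 554 bases apart. Vegfa-201 lacks an exon of 132 coding bases, shown here in capitals, that Vegfa-202 has. This exon encodes part of the heparin- and neuropilin-binding region of the longer VEGF-A forms.
Vegfa-202: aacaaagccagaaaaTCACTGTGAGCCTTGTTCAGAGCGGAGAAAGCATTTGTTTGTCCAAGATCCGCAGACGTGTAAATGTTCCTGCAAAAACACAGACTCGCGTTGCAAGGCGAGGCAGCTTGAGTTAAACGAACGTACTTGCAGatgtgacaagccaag
Adm has 1 entry, Adm-201 (ENSMUST00000033054), with 184 codons.

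**Figure D1:**
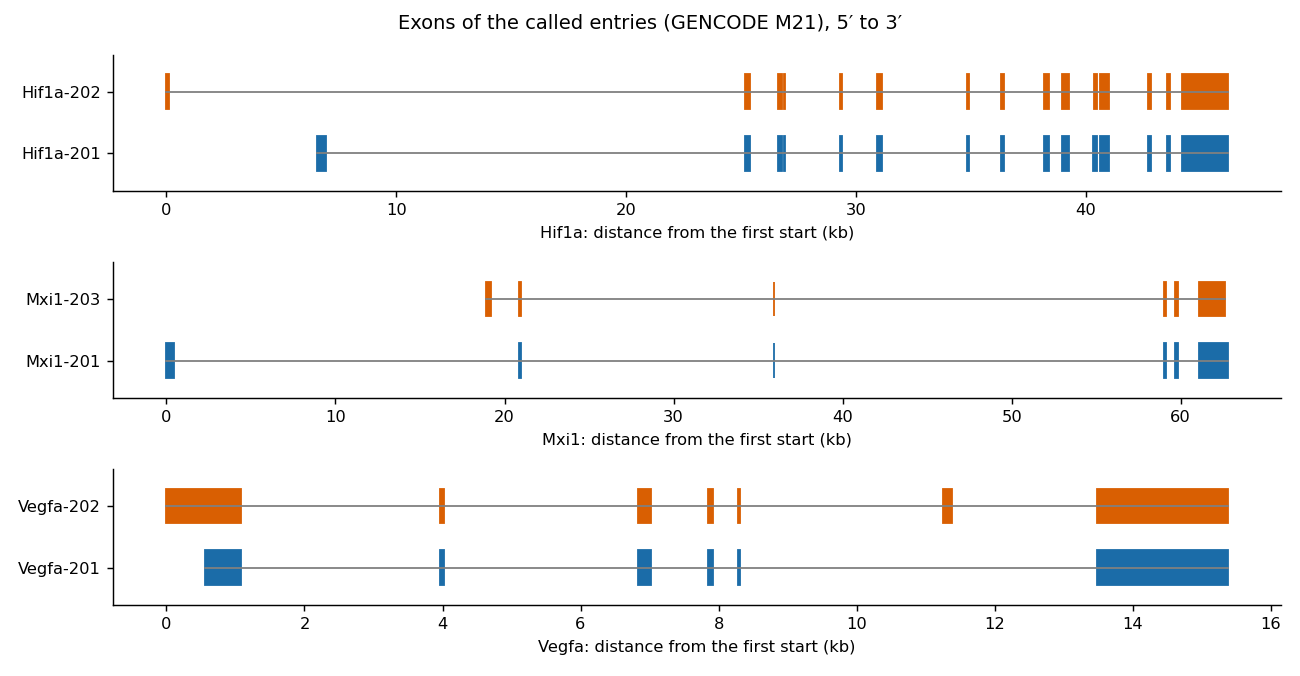
Exons (boxes) and introns (lines) of the 2 entries of Hif1a, Mxi1 and Vegfa in GENCODE M21, drawn 5′ to 3′ against the distance from the gene's first start in kb. The entries of Hif1a and of Mxi1 differ in their first exon, and Vegfa-201 lacks 1 internal exon and the first 554 bases of Vegfa-202.

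Most of each transcript is common to both entries of a gene. Of the bases of Hif1a-202, 97.2% also belong to Hif1a-201, and 124 bases are its own. Mxi1-203 shares 86.8% of its bases with Mxi1-201, and Vegfa-201 has no base of its own against Vegfa-202. Reads from shared exons had to be divided between the entries by the authors' software, so levels of single entries are uncertain, and most uncertain for Vegfa.

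Upstream windows are printed for Hif1a and Mxi1, since the entries of Mxi1, each with a start of its own, went in opposite directions. Windows of 250 bases before the start were taken from RefSeq (GRCm38.p6) and searched on both strands for ACGTG and GCGTG, the 2 forms of the core that HIF binds, and for TTCNNNGAA, the core of a gamma-activated site. Of 32851 windows of this length in the RefSeq table, 16.6% held ACGTG, 28.2% GCGTG and 7.02% TTCNNNGAA. The window before Hif1a-201 held 3 matches to ACGTG, of which 2 are the 2 strands of 1 overlapping site, CACGTG. The window before Mxi1-203 held 1 ACGTG, 66 bases before the start, and that before Mxi1-201 held no match to any of the 3 motifs. The Adm window held 2 matches to GCGTG, and the window before Vegfa-202 held none of the 3 motifs. Of the table's other windows for these genes, a Vegfa window not at the start of either entry held 1 ACGTG and 1 GCGTG. A further Mxi1 window held 1 ACGTG. It precedes a RefSeq start 282 bases downstream of the Mxi1-203 start, and so lies within the first exon of Mxi1-203. No window at the start of Hif1a-202 was analysed here. A match describes letters in these windows and is not evidence of binding. Matches are in capitals and all windows are on the plus strand.
Hif1a-201, chr12:73907617-73907866: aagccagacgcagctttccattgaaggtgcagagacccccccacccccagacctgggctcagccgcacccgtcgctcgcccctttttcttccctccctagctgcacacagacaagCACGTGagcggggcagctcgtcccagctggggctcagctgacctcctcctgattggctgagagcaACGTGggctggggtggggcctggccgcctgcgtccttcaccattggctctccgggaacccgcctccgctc
Mxi1-201, chr19:53310256-53310505: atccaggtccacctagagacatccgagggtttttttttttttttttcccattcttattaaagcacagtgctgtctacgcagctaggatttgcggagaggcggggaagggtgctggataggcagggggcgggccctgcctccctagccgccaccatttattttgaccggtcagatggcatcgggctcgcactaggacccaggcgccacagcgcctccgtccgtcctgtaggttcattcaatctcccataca
Mxi1-203, chr19:53329163-53329412: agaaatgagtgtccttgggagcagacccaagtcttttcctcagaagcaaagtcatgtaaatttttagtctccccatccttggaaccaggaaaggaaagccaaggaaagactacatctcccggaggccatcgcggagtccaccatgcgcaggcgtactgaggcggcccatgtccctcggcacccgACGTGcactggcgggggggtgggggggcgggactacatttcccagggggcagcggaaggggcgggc

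The deposited table gives, for a pair of groups, 1 fold, 1 summed FPKM (fragments per kilobase of transcript, scaled to library size) and 1 q-value (a p-value adjusted for many tests), and it holds no value of a single library. A level below is the FPKM of a group rebuilt from the fold and the sum, which has no SD and no n, and library depth is unknown. The rows used here reach from a fold of 2 upward and to a q of 0.0499, so the table lists called changes alone and the absence of a row does not show that a gene stayed the same. Of the 42 member levels, 40 could be rebuilt, 37 of them from several rows that differed by at most 0.191%. The macrophage markers Adgre1, Itgam, Spi1, Ptprc and Cd68, 5 of the 8 chosen, have a row, and none of the 12 markers of T cells, fibroblasts and endothelial cells has one. A row marks a called change and not expression, so these counts do not show which cell types were present. From construct cells with doxycycline to those with both agents, Cd68, Adgre1 and Itgam were lower, and Spi1 and Ptprc higher.

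The induced gene itself, Cited1, stood at 0.703 FPKM in untreated construct cells, 168 with doxycycline, 11.5 with interferon-gamma and 86.7 with both agents, and has no row with a parental group. Its rise with doxycycline in unstimulated cells was 238.85-fold and its rise with interferon-gamma alone 16.33-fold in the authors' deposited table, so Cited1 also moved with interferon-gamma, and its part in the member results was not tested.

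Every member row sets a group with interferon-gamma against a group without it. Such pairs number 8, and all 8 hold member rows, 50 of the 56 that 7 entries could fill. Of all listed genes, each of these pairs called 50.4% to 69.4%, and each of the other 7 pairs 0.403% to 13.2%. Calls of all listed genes thus also lay mostly in these 8 pairs, so this placing is not particular to the members. With interferon-gamma and no doxycycline, Hif1a and Vegfa rose and Mxi1 fell against untreated construct cells, which makes 3 of 4 members called, beside 50.4% of all listed genes in that comparison (25.7% higher and 24.5% lower). With doxycycline in both groups Hif1a, Vegfa and Adm rose and Mxi1 fell, 4 of 4, beside 67.8% (33.7% higher and 34% lower). The direction of Mxi1 here is that of its entry Mxi1-203 alone, since Mxi1-201 has no row in either comparison. The summed level of both Mxi1 entries was 38.4 FPKM with doxycycline and 36.4 with both agents. With interferon-gamma alone the sum was 48.6 FPKM, the highest of the groups where it could be formed. It could not be formed in untreated construct cells, so the call there does not show a fall of the gene's total. The members were picked from the table of called genes, so these counts describe them and test nothing.

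**Figure D2:**
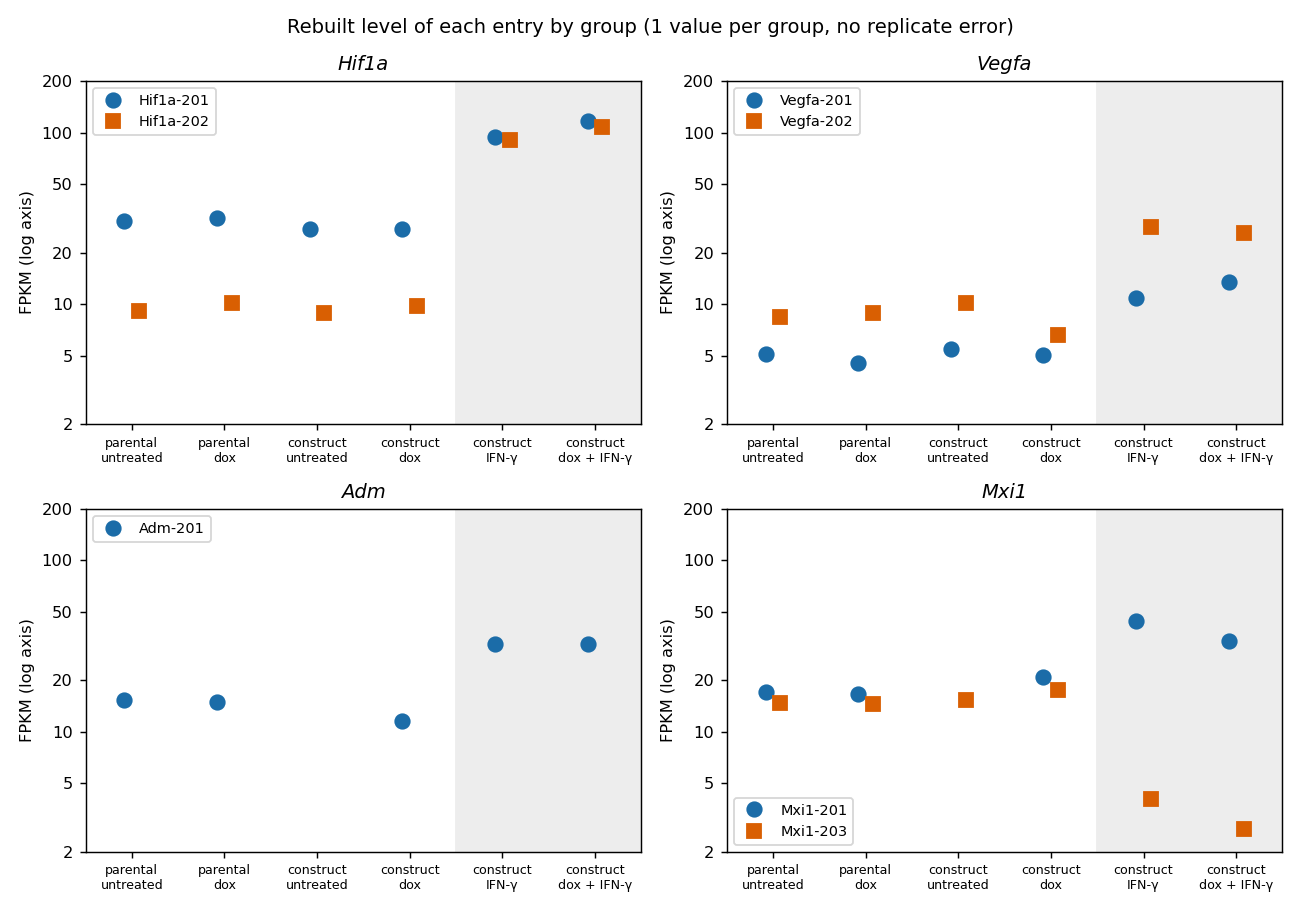
Rebuilt level of each entry in FPKM (log axis) in the 6 groups, 1 point per entry and group, with the interferon-gamma groups shaded and no point where a level could not be rebuilt. Hif1a-202 lies at 8.92 to 10.1 without and at 90.3 to 108 with interferon-gamma, and Mxi1-203 goes the other way, from 14.6 to 17.5 down to 2.73 to 4.04.

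Hif1a rose most of the 4 members, and its entry from the upstream start had the larger folds. Hif1a-202 stood at 9.18 FPKM in untreated parental cells, 10.1 in parental cells with doxycycline, 8.92 in untreated construct cells, 9.73 in construct cells with doxycycline, 90.3 with interferon-gamma and 108 with both agents. The 4 groups without interferon-gamma therefore lay close together, at most 1.14-fold apart, and far below both groups with it. The rise from untreated construct cells to interferon-gamma alone was 10.12-fold in the authors' deposited table (Cuffdiff q = 3.9e-04). This is the smallest q among the rows used here, and 71.8% of those rows share it. With doxycycline in both groups it was 11.07-fold in the authors' deposited table, at the same q.

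Hif1a-201 stood at 30.7 FPKM in untreated parental cells, 31.7 in parental cells with doxycycline, 27.4 in both construct groups without interferon-gamma, 93.8 with interferon-gamma and 116 with both agents. Here too both groups with interferon-gamma lay above all 4 others. The rise in construct cells was 3.42-fold without and 4.25-fold with doxycycline in the authors' deposited table. Levels were also rescaled so that the median log2 ratio over entries with both levels is 0. The log2 fold without and with doxycycline was then 1.13 and 1.07 for Hif1a-201, and 2.69 and 2.45 for Hif1a-202. The shift comes from listed entries alone, of which 4.13% and 1.49% had a log2 ratio within 0.5 of 0. It is therefore uncertain, and whether the rise differed with doxycycline was not tested. Over the 8 pairs, folds ran from 2.96 to 4.25 for Hif1a-201 and from 8.9 to 12.07 for Hif1a-202 in the authors' deposited table.

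The makeup of Hif1a thus differed between groups. Hif1a-202 made up 23.0% to 26.2% of the summed level of both entries in the 4 groups without interferon-gamma, and 49.0% and 48.1% in the groups with it. The summed level went from 36.3 to 184 FPKM in construct cells without doxycycline and from 37.1 to 224 with it. Whether this shift in share exceeds the spread between libraries was not tested, since the table holds no library values.

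**Figure D3:**
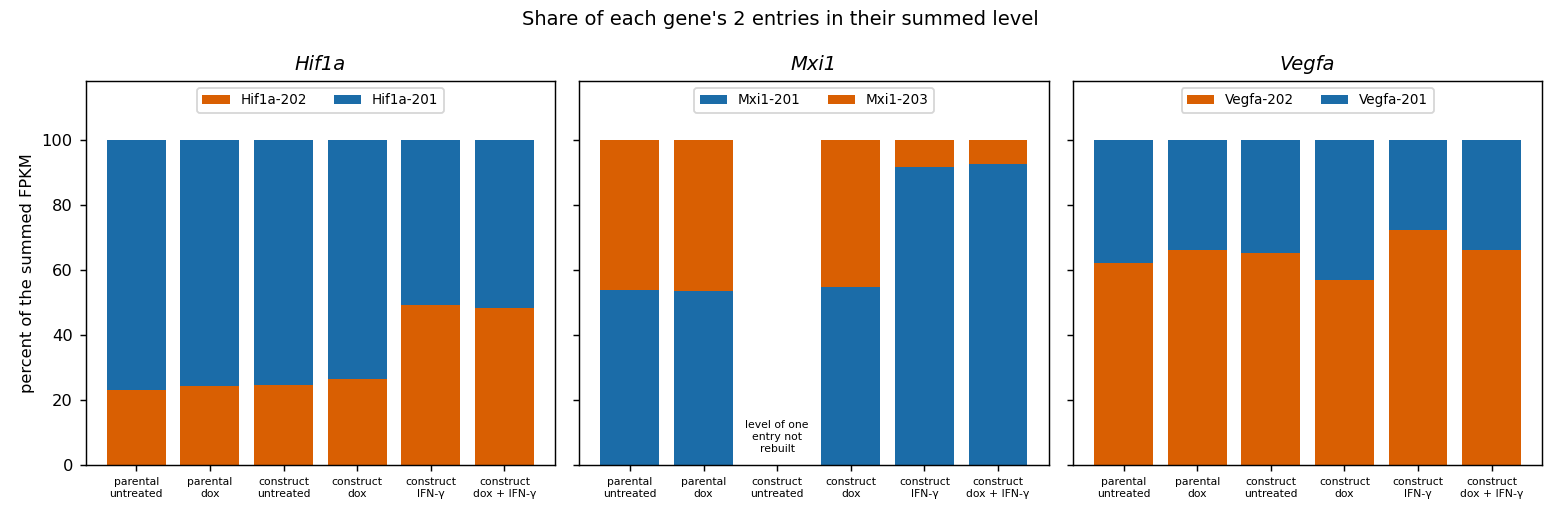
Share of each entry in the summed FPKM of the gene's 2 entries, in percent, in the 6 groups, for Hif1a, Mxi1 and Vegfa; for Mxi1 in untreated construct cells 1 level could not be rebuilt. Hif1a-202 takes 23.0% to 26.2% without and 48.1% to 49.0% with interferon-gamma, and Mxi1-201 goes from 53.3% to 54.5% up to 91.7% and 92.5%.

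Vegfa, the ligand of the receptors FLT1 and KDR, rose in both of its entries. Vegfa-202 stood at 8.39 FPKM in untreated parental cells, 8.89 in parental cells with doxycycline, 10.1 in untreated construct cells, 6.65 in construct cells with doxycycline, 28.1 with interferon-gamma and 26.1 with both agents. Its lowest level with interferon-gamma lay well above its highest without. The rise was 2.78-fold without and 3.92-fold with doxycycline in the authors' deposited table. The groups with interferon-gamma differed by 1.08-fold in rebuilt levels, and those without, in construct cells, by 1.52-fold, so the larger fold with doxycycline goes with a lower starting level. With the rescaling used for Hif1a both Vegfa entries fell short of 2-fold, at log2 0.35 (Vegfa-201) and 0.83 (Vegfa-202) without doxycycline and 0.38 and 0.95 with it. Neither of the differences between groups with, or between groups without, interferon-gamma has a row, and whether the response differed with doxycycline was not tested.

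Vegfa-201, the entry without the 132-base exon, stood at 5.11 FPKM in untreated parental cells, 4.55 in parental cells with doxycycline, 5.45 in untreated construct cells, 5.08 in construct cells with doxycycline, 10.9 with interferon-gamma and 13.4 with both agents. Its rise without doxycycline sat at the limit of the table, 2-fold (Cuffdiff q = 0.00395, authors' deposited table), and with doxycycline it was 2.64-fold in the authors' deposited table. Vegfa-202 made up 56.7% to 66.1% of the summed Vegfa level in groups without interferon-gamma and 72.1% and 66.0% in those with it, so these ranges, unlike those of Hif1a, overlap.

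Adm, the gene of the vasodilator peptide adrenomedullin, rose where it has a row, by less than either Hif1a entry. It stood at 15.3 FPKM in untreated parental cells, 15 in parental cells with doxycycline, 11.5 in construct cells with doxycycline, 32.3 with interferon-gamma and 32.4 with both agents. Its level in untreated construct cells could not be rebuilt, because Adm has no row that involves that group. Construct cells with doxycycline were lowest and both interferon-gamma groups were level with each other. The rise with doxycycline in both groups was 2.82-fold in the authors' deposited table, and with rescaled levels it was log2 0.48, under the 2-fold limit. Against both parental groups the interferon-gamma groups were 2.11-fold to 2.16-fold higher in the authors' deposited table.

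Mxi1, the MYC-opposing repressor gene, was the only member with entries called in opposite directions. Mxi1-203 stood at 14.7 FPKM in untreated parental cells, 14.6 in parental cells with doxycycline, 15.4 in untreated construct cells, 17.5 in construct cells with doxycycline, 4.04 with interferon-gamma and 2.73 with both agents. It fell 3.8-fold without doxycycline (Cuffdiff q = 3.9e-04) and 6.41-fold with doxycycline (Cuffdiff q = 0.0131) in the authors' deposited table. With rescaled levels the log2 folds were -2.57 and -3.70. The call with doxycycline is lost at a q of 0.01 or less, as are those of the other 3 pairs with both agents (Cuffdiff q = 0.0227 to 0.0283 in the authors' deposited table).

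Mxi1-201, the entry from the upstream first exon, stood at 17.1 FPKM in untreated parental cells, 16.6 in parental cells with doxycycline, 20.9 in construct cells with doxycycline, 44.6 with interferon-gamma and 33.7 with both agents. Its level in untreated construct cells could not be rebuilt. It has 4 rows, all higher with interferon-gamma, from 2.03-fold to 2.68-fold in the authors' deposited table. No row exists for the pair of construct cells with doxycycline and with both agents, where the rebuilt levels differ by 1.61-fold, nor for untreated parental cells against both agents, where they differ by 1.97-fold, just under the 2-fold limit. The lowest row just inside that limit is the 2.03-fold rise from parental cells with doxycycline to both agents in the authors' deposited table. No rescaled fold was formed for Mxi1-201, which has no row in either main interferon-gamma comparison. With doxycycline in both groups its rebuilt log2 ratio was 0.69, and the rescaling used for Hif1a shifted log2 ratios there by 1.02. The rise of Mxi1-201 is thus uncertain under rescaling.

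The direction called for Mxi1 therefore depends on the pair. Mxi1 was called lower in both main interferon-gamma comparisons through Mxi1-203 alone, and in 4 of the 8 pairs it had entries in both directions, so it counted as neither higher nor lower. Those 4 pairs set interferon-gamma alone against both parental groups and against construct cells with doxycycline (52.9%, 52.8% and 50.8% of listed genes called), and both agents against parental cells with doxycycline (67.4% called). The pairs of both agents with untreated parental cells and with untreated construct cells called 69.4% and 68.2%, and there Mxi1 was called lower. Mxi1-201 made up 53.3% to 54.5% of the summed level without interferon-gamma and 91.7% and 92.5% with it. The summed level of both entries was 31.2 to 38.4 FPKM in the 3 groups without interferon-gamma where it could be formed, 48.6 with interferon-gamma and 36.4 with both agents. With both agents the sum thus lay within the range of the groups without interferon-gamma, although its makeup differed.

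**Figure D4:**
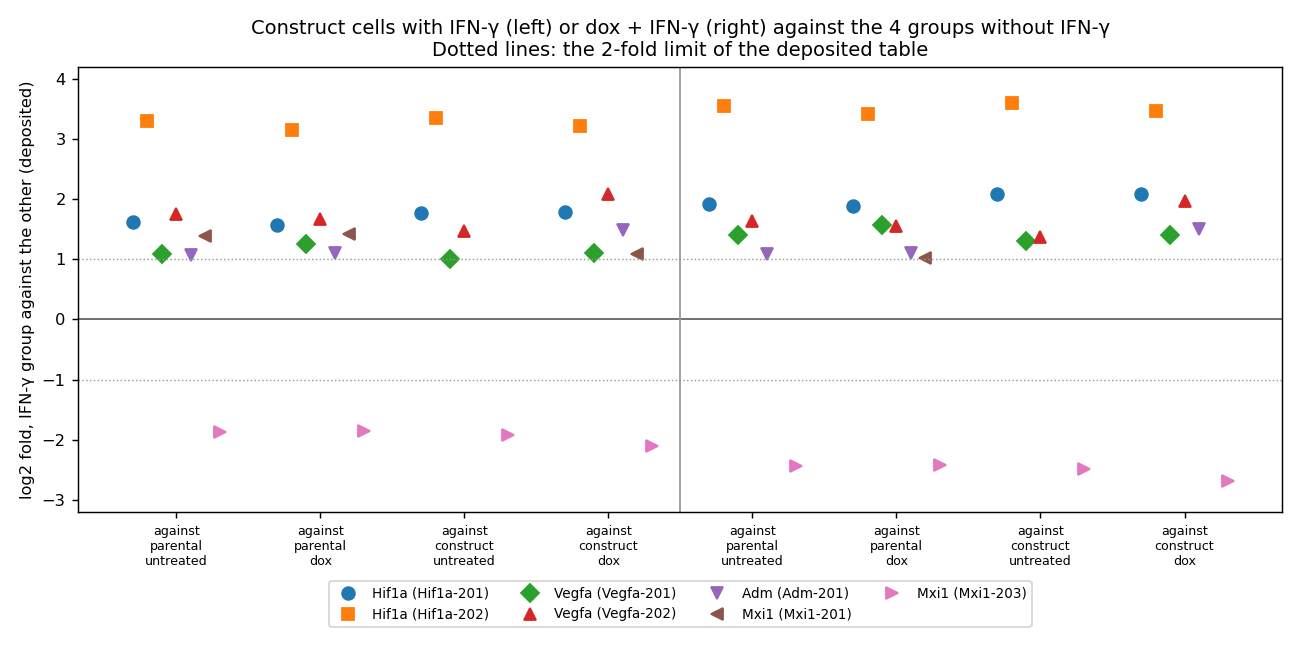
Deposited log2 fold of each entry in the 8 pairs that set interferon-gamma alone (left) or both agents (right) against a group without it; these pairs share groups and are not independent. Hif1a-202 is highest in every pair and Mxi1-203 is the only entry below 0.

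No member was called between construct groups that differ by doxycycline alone. Doxycycline in unstimulated construct cells called 0.403% of listed genes and 0 of 4 members, and in interferon-gamma-treated construct cells 13.2% and 0 of 4. At shares this low, 0 of 4 is close to what all listed genes give. In stimulated cells the rebuilt level with both agents was 1.24-fold that with interferon-gamma alone for Hif1a-201, 1.19-fold for Hif1a-202, 1.23-fold for Vegfa-201 and 1.00-fold for Adm. The largest member differences on that step were downward, with Mxi1-203 at 1.48-fold and Mxi1-201 at 1.32-fold lower levels with both agents. In unstimulated construct cells, among the 5 entries with both levels, the largest was Vegfa-202, whose level was 1.52-fold lower with doxycycline. Adm and Mxi1-201 have no level there. All of these ratios are under the 2-fold limit and have no error attached.

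The members also have no row between groups that differ by doxycycline in parental cells (0.898% of listed genes called), nor between construct and parental cells when untreated (4.49%) or with doxycycline (5.61%). The same holds for both pairs that cross line and inducer, untreated parental cells against construct cells with doxycycline (6.65%) and parental cells with doxycycline against untreated construct cells (4.09%). The shares called in these pairs are small, so 0 of 4 members is close to what they give. Over the 4 groups without interferon-gamma no entry with all 4 levels varied by more than 1.52-fold, the value of Vegfa-202.

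Other genes of the pathway were counted over 5 lists with 111 genes, of which 46 have a row between the groups used here. With interferon-gamma alone 17 were higher and 6 lower, which is 50.0% of those 46, beside 50.4% of all listed genes called. With doxycycline in both groups 23 were higher and 10 lower, 71.7% beside 67.8%. The share called in either direction was thus near that of all listed genes. By direction, all listed genes gave 25.7% higher and 24.5% lower without doxycycline, and 33.7% and 34% with it. The lists thus held more higher than lower calls, where all listed genes were nearly even, and this lean was not tested. Levels were also rescaled to put the median log2 ratio of entries with both levels at 0. The split was then 7 higher and 6 lower without doxycycline and 7 higher and 10 lower with it. Rescaling lowered every log2 fold and was applied to called entries alone. Higher calls could thus be lost, while lower calls could be neither lost nor gained, so the new split is partly fixed in advance. The rescaling shift rests on listed entries alone, and no rescaled split of all listed genes was formed.

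**Figure D5:**
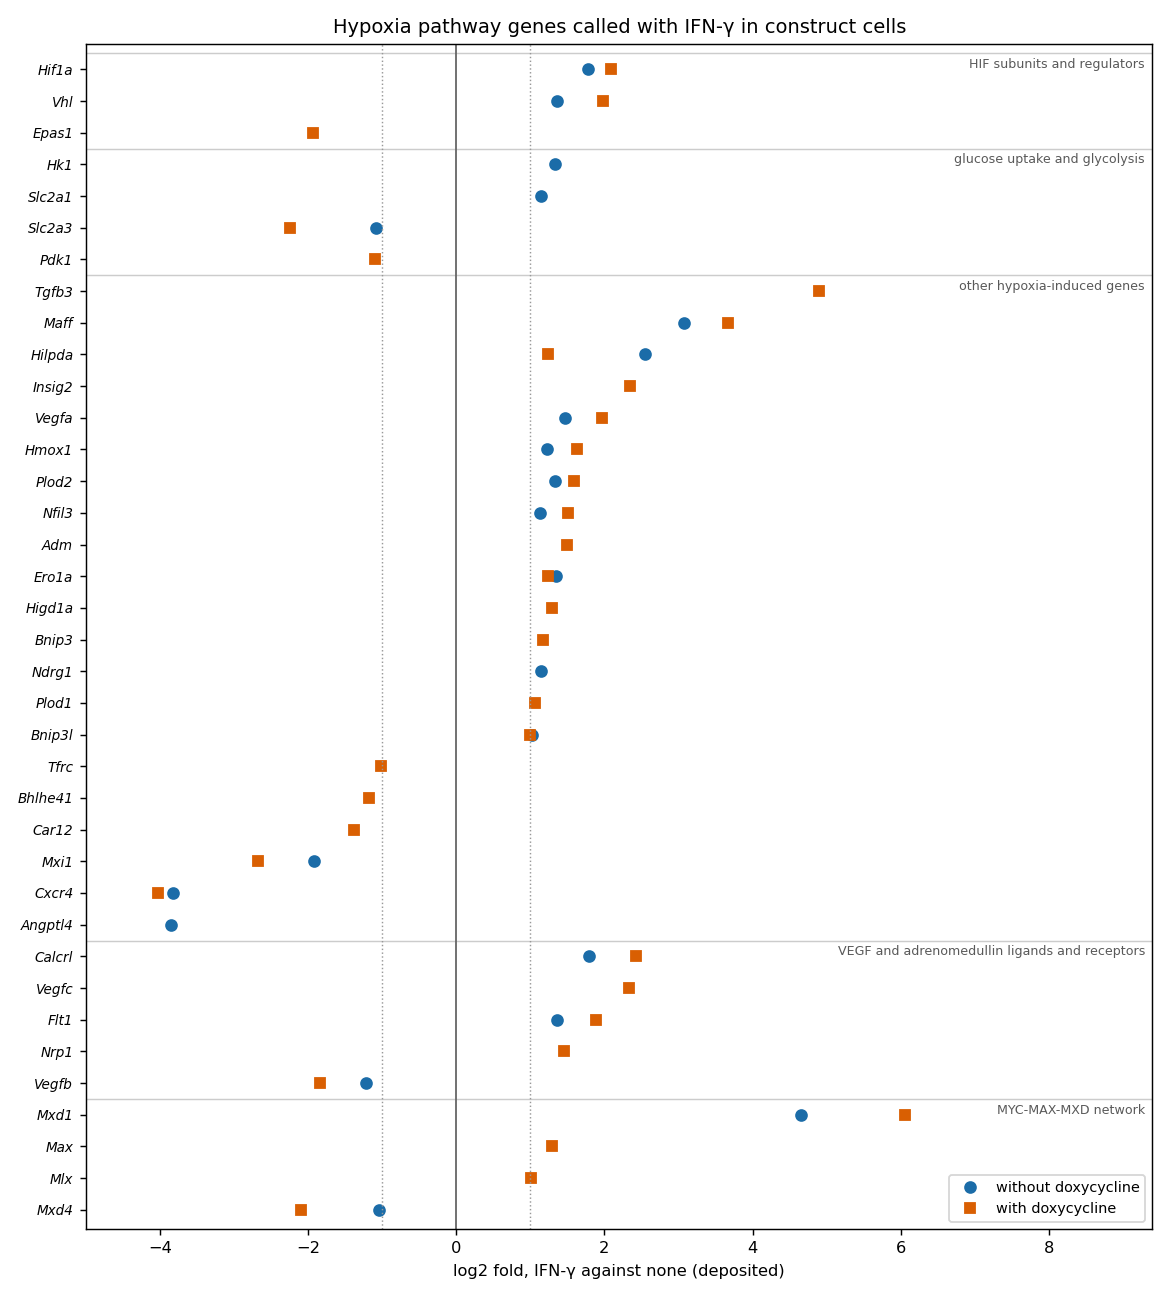
Deposited log2 fold with interferon-gamma for the pathway genes called in construct cells without (circles) or with doxycycline (squares), 1 called entry per gene and comparison (that of highest summed FPKM); dotted lines mark the 2-fold limit. Without doxycycline 16 of the 17 higher genes are drawn, to the right of 0, and all 6 lower genes to the left, with doxycycline 23 and 10.

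Among 14 genes of HIF subunits and regulators 3 have a row, and 2 of these rose without doxycycline, Hif1a and Vhl (66.7%, beside 50.4% of all listed genes). With doxycycline 2 rose and 1 fell (100%, beside 67.8%). Levels here and below were rebuilt from the authors' deposited table. Vhl, which encodes the recognition part of the ligase that degrades hydroxylated HIF-1α, went from 16.8 to 43.1 FPKM without and from 16.4 to 64.6 with doxycycline. Epas1, the gene of HIF-2α, was lower with doxycycline and interferon-gamma, at 0.547 and 0.143 FPKM. It was also lower in construct than in parental cells, from 0.812 to 0.368 FPKM when untreated and from 1.10 to 0.543 with doxycycline. The remaining 11 genes of this list, prolyl hydroxylase and co-activator genes among them, have no row.

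Genes of glucose uptake and glycolysis moved in both directions. Of 24 genes 5 have a row, of which 60% were called without and 40% with doxycycline, beside 50.4% and 67.8% of all listed genes. Without doxycycline the hexokinase gene Hk1 went from 56.7 to 143 FPKM and the glucose transporter gene Slc2a1 from 119 to 264, whereas Slc2a3, for another glucose transporter, fell from 11.8 to 5.55. With doxycycline 0 were called higher and 2 lower, Slc2a3 from 10.9 to 2.29 FPKM and Pdk1, for a kinase that restrains pyruvate dehydrogenase, from 36.9 to 17.2. The main entries of Hk1 and Slc2a1 have no row with the group given both agents, so counts with and without doxycycline cannot be compared. In stimulated cells doxycycline was followed by falls of the enolase gene Eno2, from 18.4 to 6.40 FPKM, and of Slc2a3, from 5.55 to 2.29. Eno2 was higher in untreated construct than in untreated parental cells, 7.97 against 3.98 FPKM.

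Of 45 other hypoxia-induced genes, the 3 targets included, 28 have a row, of which 10 rose and 3 fell without doxycycline (46.4% called, beside 50.4% of all listed genes). The small MAF factor gene Maff went from 2.22 to 18.7 FPKM. The chemokine receptor gene Cxcr4 fell from 8.02 to 0.564 FPKM and Angptl4, for a lipoprotein lipase inhibitor, from 1.51 to 0.104. With doxycycline 14 rose and 5 fell (67.9% of the 28, beside 67.8%), led by Tgfb3 (0.220 to 6.56 FPKM), Cxcr4 (6.20 to 0.380), Maff (2.32 to 29.6) and Mxi1. Tgfb3 stood at 10.2 FPKM with interferon-gamma alone and has no level in untreated construct cells. In stimulated cells doxycycline was followed by rises of Fos (6.28 to 16 FPKM), Edn1, the endothelin gene (3.31 to 8.45), and Wsb1, and by falls of the carbonic anhydrase gene Car12 (2.77 to 1.06) and of a minor Hilpda entry (0.568 to 0.142). Between lines P4ha2 and Car12 were lower in untreated construct cells (1.90 to 0.432 and 5.70 to 2.83 FPKM), and Tfrc and Car12 were lower with doxycycline (73.0 to 34.8 and, for another entry, 3.86 to 1.34).

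Of 17 ligand and receptor genes for VEGF and adrenomedullin, 7 have a row. Of these, 3 rose and 1 fell without doxycycline (57.1%, beside 50.4% of all listed genes), and 6 rose and 1 fell with it (100%, beside 67.8%). Calcrl, which encodes the receptor that binds adrenomedullin together with a RAMP protein, went from 13.0 to 45.3 FPKM without and from 12.3 to 65.7 with doxycycline. Flt1, for a VEGF receptor, went from 13.9 to 35.7 and from 12 to 44.6 FPKM. Vegfb fell in both comparisons, from 20.9 to 8.99 FPKM for the entry called without doxycycline and from 25.1 to 7.04 for the more abundant entry with it. Vegfc, the lymphatic growth factor gene, fell with doxycycline in unstimulated cells, from 3.82 to 1.79 FPKM, and rose with doxycycline in stimulated cells, from 3.03 to 9.0. Vegfb fell in that last comparison, from 14.8 to 7.02 FPKM.

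Other members of the MYC-MAX-MXD network, a set of dimerising factors that compete for MAX, moved beside Mxi1. Without doxycycline Mxd1 rose from 1.93 to 48.7 FPKM and Mxd4 fell from 8.48 to 4.10, so of the 6 genes with a row, out of 15, 1 was higher and 2 lower, Mxi1 included (50%, beside 50.4% of all listed genes). With doxycycline 3 were higher and 2 lower (83.3%, beside 67.8%): Mxd1 went from 2.26 to 150.0 FPKM, the partner gene Max from 42.9 to 105 and Mxd4 from 12.2 to 2.84, with Mlx and Mxi1 as the others. Mxd1 was the 1 gene of this list called with doxycycline in stimulated cells, from 48.7 to 150.0 FPKM. Between lines with doxycycline Mxd4 was higher in construct cells (5.04 to 12.2 FPKM) and a minor Myc entry lower (0.974 to 0.346).

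The genes whose folds were most like a member's were sought among entries called in exactly the same pairs and directions, ranked by the root mean square difference of log2 folds. For Hif1a-201, with 8 pairs and 646 candidate genes, the nearest were Nampt, the NAD salvage enzyme gene, at 0.05, Txndc17 at 0.07 and the IκBβ gene Nfkbib at 0.07. Nampt stood at 52.5 to 63.3 FPKM in the groups without interferon-gamma and at 183 and 232 in those with it. For Vegfa-202, also over 8 pairs, they were the liver X receptor gene Nr1h2 at 0.17, Adprm at 0.18 and Lrrc8c at 0.18. For Adm, over 6 pairs and 10 candidates, they were Higd1a, a hypoxia-inducible mitochondrial gene, at 0.18, Rassf8 at 0.23 and Mta3 at 0.23. For Mxi1-201, over 4 pairs, the 1 candidate was Riok3 at 1.06, which is not close. These pairs share groups, so the likeness rests on 6 group levels or fewer.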

How the data were processed

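RNA from 18 libraries in 6 groups of 3 was sequenced by the authors. Whether the 3 libraries of a group are separate cultures is not in the labels. Tools listed in the submitters' processing notes, with no role given, are Cuffdiff 2.2.1, edgeR, featureCounts, FastQC 0.11.5 and STAR 2.5.3a. The genome build is not given in the sources used here. Per the file headers, the deposited table gives a fold as a linear ratio, the FPKM summed over both groups, and a q-value, all computed by the authors. Of 112230 rows, 34824 name a pair of the 6 groups, and the other 77406 were not used. The lower level was rebuilt as the sum divided by 1 plus the fold. Levels from several rows were averaged by the median (Python 3.11.15, pandas 2.3.3). A gene with called entries in both directions counts as neither higher nor lower. Shares of listed genes use the 5455 named genes with any row as denominator. No test was run, because the table has no library values. The members and lists were chosen with earlier results of these data known. Named beside the members were, for each list, the 4 largest folds in each of the 3 main comparisons that involve interferon-gamma (Wsb1, Mlx and the genes of the closing observations were added after their values were seen) and all calls in the other 4 main comparisons. A gene that this rule names is counted but not reported here. Alternatives were a stricter q, a minimum of 1 FPKM, a pseudocount of 1 FPKM, rescaled levels, and main entries alone. Rebuilding, counting and the search for alike genes were tested on simulated rows. Transcript structures came from GENCODE M21 and promoters from RefSeq.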

Additional observations from a re-analysis of the deposited data

How the results depend on the processing

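Calls of the 4 members and of the 111 pathway genes were recounted over the 7 main comparisons under 5 alternatives. At a q of 0.01 or less, with a minimum of 1 FPKM, and with the entry of highest summed FPKM alone, all 14 counts stayed within 1.5 times the original. Every alternative filters listed rows alone, so no count could grow and those that were 0 could not change. Main entries alone dropped Mxi1 from both interferon-gamma comparisons, since its main entry, Mxi1-201, has no row there. Rescaling, which took the median log2 ratio of entries with levels in both groups to 0 by a shift of 0.65 without and 1.02 with doxycycline, left 2 of 4 members called with doxycycline, Hif1a and Mxi1, and 13 and 17 pathway genes without and with it. Vegfa fell under 2-fold in both comparisons and Adm in the one with doxycycline, while keeping their direction. Levels exist for listed entries alone, of which 4.13% and 1.49% had a log2 ratio within 0.5 of 0, so the shift is itself uncertain. With a pseudocount of 1 FPKM, which shrinks low levels, pathway counts went to 6 for doxycycline in stimulated cells, 0 for doxycycline in unstimulated cells, and 1 and 3 for construct against parental cells without and with doxycycline. No direction was reversed for a member entry with a row in the comparison. Mxi1-201 has no row in either main interferon-gamma comparison and was not checked. With doxycycline in both groups its rebuilt log2 ratio, 0.69, is smaller than the shift of 1.02. No paired analysis was possible because the table holds no values per library; leaving out libraries was not run for the same reason.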

Other observations

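Further hypoxia-induced genes were called in construct cells with interferon-gamma and fall outside the naming rule of the report. Without doxycycline Ero1a, for an oxidase of protein folding, went from 67.4 to 172 FPKM, the haem oxygenase gene Hmox1 from 123 to 289, Ndrg1 from 107 to 236, the collagen-modifying enzyme gene Plod2 from 6.92 to 17.5, the transcription factor gene Nfil3 from 9.19 to 20.0 and the mitophagy receptor gene Bnip3l from 45.5 to 92.9. With doxycycline in both groups Insig2, which restrains sterol synthesis, went from 2.30 to 11.7 FPKM, the mitophagy receptor gene Bnip3 from 224 to 503, the main entry of the lipid droplet gene Hilpda from 12.6 to 29.8 and Plod1 from 51.9 to 108. The circadian repressor gene Bhlhe41 was lower there, at 35.1 and 15.5 FPKM, as was the transferrin receptor gene Tfrc, at 34.8 and 17.1. With interferon-gamma alone Insig2 stood at 11.3 FPKM, Bnip3 at 394 and the main Hilpda entry at 29.4. These entries have no level in untreated construct cells, so whether their rise needed doxycycline was not tested.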
